A study of Mus musculus with 6 samples.

Results

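Agilent gene expression arrays carry, beside probes for annotated transcripts, probes whose only name is a stretch of genome with a strand suffix, for example chr13:28947034-28949166_R. These interval probes were placed to detect long noncoding transcription. Probes were selected on their name, an interval ending in _F or _R, and on their measured signal, which had to be well above background on all 3 arrays of one genotype. Of 16181 interval probes among the 55681 non-control probes, 5321 met this rule, covering 2677 of 4607 interval strands and 2196 of 3540 distinct intervals. The rule reads the same signals as the comparison below, so for a probe kept through 1 group the choice and the difference are not independent. The background limit differed between arrays, and such a probe was not always brighter in that group. Interval coordinates are those of mm9, the build named in the scanner files, and no label or file header says which genomic strand F and R stand for.

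The arrays measured skin of 6 male mice on a mixed C57Bl6/129Sv background, untreated and in telogen, when hair follicles rest. The 3 wild-type (WT) mice were 20, 19 and 18 weeks old, and the 3 mice whose skin carries a conditional Sox4 knockout (KO) were 17, 18 and 16 weeks old. The labels name neither the driver of the deletion nor the cells it acts in. The ages differ within each group, so each array was taken as 1 mouse, and p-values measure the spread between these 6 samples. The comparison asks what loss of Sox4 in skin changes in basal conditions.

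Long noncoding RNAs are transcripts that are not translated. Many are nuclear, spliced and low in abundance, and many lie within or opposite protein-coding genes, so that a signal from an interval can come from a separate transcript, from an unspliced part of a host gene or from an extended end of a neighbour. Some act on the locus they are transcribed from, others bind proteins or microRNAs elsewhere in the cell. Sox4 is a transcription factor of the SRY-related HMG-box family that is active in progenitor cells, including those of the hair follicle. It lies on chromosome 13, at about 29 Mb in mm9, in a gene-poor stretch. In the RefSeq gene order of GRCm38.p6, used here for names alone, the long noncoding genes Gm34639, Gm34697, Gm40858, Gm46405 and Gm46406 follow one another on one side of Sox4, and Gm52067, A330102I10Rik and the coding gene Cdkal1 lie on the other.

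Sox4 itself checks the labels. The signals of its probe A_55_P2121613 were 504, 764 and 735 intensity units on the WT arrays and 78.7, 69.0 and 59.5 on the KO arrays. On the log2 scale, relative to each array's 75th percentile, KO minus WT was -3.56 ± 0.13 (SE, 3 arrays against 3), an 11.8-fold lower level with an adjusted p of 0.00169 in the limma fit over all 30069 kept probes. Directions follow the scanner files. In the authors' deposited value table the columns headed WT follow the KO arrays and the reverse. Its differences as headed therefore have the opposite sign to those read by matching columns. With slide as a block the adjusted p of A_55_P2121613 was 0.0599, and over all 18 alternative fits it ran from 0.000364 to 0.0795. The second Sox4 probe, A_55_P2131899, was well above background on the 3 WT arrays and on no KO array, and was at least 7.20-fold lower in KO (limma adjusted p = 0.0527). Where a group had no array above background, a fold is given as a bound, from the brighter group's mean to the dimmer group's detection limit. The coding neighbours were measured on every array and were not called. Cdkal1, a tRNA-modifying enzyme, was higher in KO by 0.28 ± 0.12 without overlap. The acyltransferase gene Mboat1 differed by -0.19, and 2 probes of the cell-cycle transcription factor E2f3 by 0.23 and 0.11, all with overlap.

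Facts of the whole array set frame these values. The 75th percentile of the processed signal lay between 380.3 and 607 units, no spot was saturated, and the dimmest signal called above background lay between -5.51 log2 units on KO replicate 1 and -4.10 on KO replicate 2. As a check of the skin label, all 12 keratinocyte, 6 fibroblast and 7 adipocyte markers were measured, each above background on all 6 arrays. Of 30 skeletal muscle genes, 30 were measured and 30 were higher in KO, 24 without overlap, where 7.87% of all kept probes were higher in that way. The median level of that list relative to the WT mean was 1.20 on WT replicate 1, -0.42 and -0.68 on the other WT arrays, and 1.71, 2.17 and 1.54 on the KO arrays. Hair shaft and inner root sheath genes, 22 of 30 listed being measured, stood at 4.16 and 3.65 on KO replicates 1 and 2, but at -0.03 on KO replicate 3 and between -0.14 and 0.21 on the WT arrays. T and NK cell genes, 18 of 20 listed, lay between -1.10 and -0.95 in KO and between -0.04 and 0.08 in WT. Of these 18 genes, 17 were lower without overlap, where 11.1% of all kept probes were. All 30 muscle genes were above background on all 6 arrays, and the part of these lists in the interval signals was not tested. In bulk skin, fewer cells of a type and less RNA per cell cannot be told apart.

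Interval probes were detected less often than the rest of the array: 32.9% were kept, against 62.7% of all other non-control probes. On single arrays the share above background ran from 30.0% on KO replicate 2 to 51.0% on KO replicate 1, with WT at 36.6%, 33.9% and 39.6% and KO replicate 3 at 39.1%. KO replicate 2 therefore decided many memberships. Of the 5321 kept probes, 4226 were above background on all 6 arrays, 740 were kept through WT alone and 355 through KO alone. Among the 740 kept through WT alone, 642 missed the limit on KO replicate 2 and on no other array, and 2 were above background on no KO array. Of the 355 kept through KO alone, 39 were above background on no WT array. The 10860 probes that were not kept include 7073 above background on no array and 1370 on KO replicate 1 alone.

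Detection varied with the interval. Interval lengths ran from 62 to 7128487 bases with a median of 7315. Probes of intervals of 1 to 5 kb were kept most often, at 36.8%, and those up to 1 kb and over 100 kb least, at 27.6% and 28.6%. By chromosome the kept share ran from 23.9% on chromosome 9 and 25.3% on X to 41.3% on 19 and 41.9% on 17. Chromosome 13, which carries Sox4, had 258 of 938 probes kept, 27.5%. F and R probes were kept at 31.4% and 34.4%. Of 1067 intervals probed on both strands, 481 had kept probes on both, 209 on F alone, 232 on R alone and 145 on neither, so 441 of them were detected on one strand alone. Probes to the same interval strand often disagreed as well: of 3382 strands with 3 probes or more, 352 had every probe kept, 1794 some and 1236 none. Since the files place a probe only somewhere in its interval, a kept probe shows signal from part of it.

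At the edge of the rule, the 3 dimmest kept probes were above background on the KO arrays alone. A_30_P01031739 (chr17:38132217-38157667_F), for example, gave signals of 7.87, 13.6 and 9.16 units in WT and 23.2, 30.2 and 25.5 in KO. The brightest probes left out had a bright array in each group but failed on others. A_30_P01030357 (chr3:19179899-19216399_R) read 26.1, 20.5 and 293 units in WT and 37.3, 24.7 and 161 in KO, above background on replicates 1 and 3 of each group.

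Over all kept interval probes, the KO and WT arrays differed little. The median of KO minus WT was -0.06 log2 units, with quartiles of -0.28 and 0.21, beside -0.08 with quartiles of -0.22 and 0.11 over all kept probes, and 56.8% of interval probes lay below 0, beside 62.4% of all. None of the 5321 was called by limma at an adjusted p under 0.05, where 3 of 30069 kept probes (0.00998%) were; the smallest adjusted p of an interval probe was 0.0731. At an unadjusted p under 0.05, 334 interval probes (6.28%) were higher in KO and 245 (4.60%) lower, against 6.39% and 5.08% of all kept probes. Groups did not overlap for 402 interval probes (7.55%) higher in KO and 471 (8.85%) lower, against 7.87% and 11.1% of all. A difference of at least 1 log2 unit was reached by 4.19% of interval probes and 4.25% of all. On these counts the interval probes lay near the array as a whole. The spread was wider, with a median SE of 0.21 against 0.17, and KO arrays differed among themselves more often: 272 interval probes ranged over more than 2 log2 units within KO, and 84 within WT.

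The counts depended on single mice. Without WT replicate 1, whose muscle genes were the highest of WT, 38 interval probes were called, 33 of them higher in KO, with 292 of all kept probes. Without KO replicate 3 there were 14, all higher, with 187 of all, and without KO replicate 1 there was 1, with 6 of all. Leaving out KO replicates 1 and 2 together, which had the high hair genes, gave 88 interval probes, 83 higher, with 197 of all. That last fit rests on a single KO array, assumed to vary as the WT arrays do. Adding age, which overlaps between the groups only at 18 weeks, gave 8 interval probes, all higher, with 169 of all kept probes, 161 of them higher.

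The intervals around Sox4 were the ones with the smallest p-values. Between 27 and 31 Mb of chromosome 13 the array holds 54 interval probes on 18 interval strands, 34 of suffix R and 20 of suffix F. Of the 14 kept, 10 R and 4 F, 6 were higher in KO without overlap and none was lower without overlap, where 7.55% of all kept interval probes were higher in that way. All 6 were R probes of intervals lying between 28551902 and 28975446. The 4 interval probes with the smallest unadjusted p of all 5321 were among them. None of the 6 passed the adjusted threshold, and since the stretch was set apart with earlier results of these data known, its counts are a description.

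Among the kept probes of this stretch that were above background on all 6 arrays, the one with the largest difference was A_30_P01022276, in the short interval chr13:28947034-28949166_R of 2133 bases. Its signals were 37.6, 35.7 and 36.4 units in WT and 268, 147 and 149.7 in KO. Every KO mouse lay well above every WT mouse, with KO replicate 1 the highest. KO minus WT was 2.0 ± 0.21 (SE), a 4.0-fold higher level, with an unadjusted p of 4.13e-05 and a limma adjusted p of 0.0731. The second kept probe of the same interval, A_30_P01031644, read 134, 118 and 125 units in WT and 335, 179.9 and 272 in KO. It was higher by 0.72 ± 0.23 (adjusted p = 0.344), so probes to one interval of this length differed in the same direction by unlike amounts. The last probe of the strand, A_30_P01029017, was above background on KO replicate 1 alone and was not kept; its signals were 4.97, 5.97 and 6.02 in WT and 39.3, 14.9 and 28.7 in KO.

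The interval chr13:28551902-28975446_R spans 423545 bases and contains the one just described. Its probe A_30_P01018833 was above background on every array, with 46.1, 41.8 and 43.2 units in WT and 183, 108 and 93.5 in KO, a difference of 1.19 ± 0.22 (adjusted p = 0.281). A_30_P01019384 gave 23.6, 23.1 and 16.6 units in WT, above background on WT replicate 1 alone, and 108, 66.5 and 67.3 in KO. It was higher by 1.61 ± 0.22, with an adjusted p of 0.175. The strand's remaining probe, A_30_P01020189, passed the background limit on KO replicate 1 alone and was not kept; it read 9.15, 11.8 and 12.8 units in WT and 61.7, 32.3 and 18.9 in KO. The groups therefore stood apart for all 3 probes of this strand, kept or not. Of the 40 probes of the stretch that were not kept, 3 were higher in KO without overlap and 2 lower without overlap. The lower ones were A_30_P01017483, above background on no array, and A_30_P01020550, above it on WT replicate 2 alone.

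The remaining 2 probes of the 6 were above background on all KO arrays and on no WT array. A_30_P01029174 (chr13:28700385-28760363_R) had the tightest groups, at -4.87, -4.73 and -4.81 log2 units in WT and -3.79, -3.69 and -3.66 in KO. Its difference of 1.09 ± 0.11 gave the smallest p of any interval probe, 3.77e-05 (adjusted p = 0.0731), and the level was at least 1.57-fold higher. The other probe of this strand, A_30_P01017703, was above background on WT replicate 3 alone and was not kept. It did not share the direction, with 18.9, 5.77 and 60.4 units in WT and 5.37, 7.51 and 12.6 in KO, the groups overlapping. A_30_P01023783 (chr13:28952570-28953234_R, 665 bases) read 8.08, 5.02 and 7.55 units in WT and 63.7, 31.7 and 34.7 in KO. It was higher by 2.31 ± 0.32 (adjusted p = 0.175), at least 1.59-fold. Membership of A_30_P01029174, A_30_P01023783 and A_30_P01019384 came through KO alone, so that they differ is in part what chose them. The other 3 of the 6 were above background in both groups.

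Other kept probes of the same stretch did not share this pattern. A_30_P01027179, in the longest of the overlapping intervals (chr13:28477490-28985604_R), was steady, between 3.22 and 3.51 log2 units on all 6 arrays, with a difference of -0.08 ± 0.12. A_30_P01021482 (chr13:28653375-28975325_R) gave 703, 950.5 and 925 units in WT and 768, 430.5 and 931 in KO, a difference of -0.64 ± 0.28 with overlapping groups. A_30_P01031425, in the same 665-base interval as A_30_P01023783, differed by -0.18 ± 0.32. The last probe of that strand, A_30_P01033166, was above background on WT replicate 2 alone and was not kept. A_30_P01032874 (chr13:28537223-28539860_R) differed by 0.61 ± 0.52, with KO replicate 2 alone high, at 589 units where the other arrays read 95.1 to 219. On the F strand, the 3 probes of chr13:29106280-29120376_F, on the far side of Sox4, differed by -0.18, -0.26 and -0.33, all with overlap. The median of the 10 kept R probes was 0.90 and that of the 4 F probes -0.25, while the 244 kept chromosome 13 interval probes outside the stretch had a median of -0.13 and 18 higher without overlap.

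**Figure D1:**
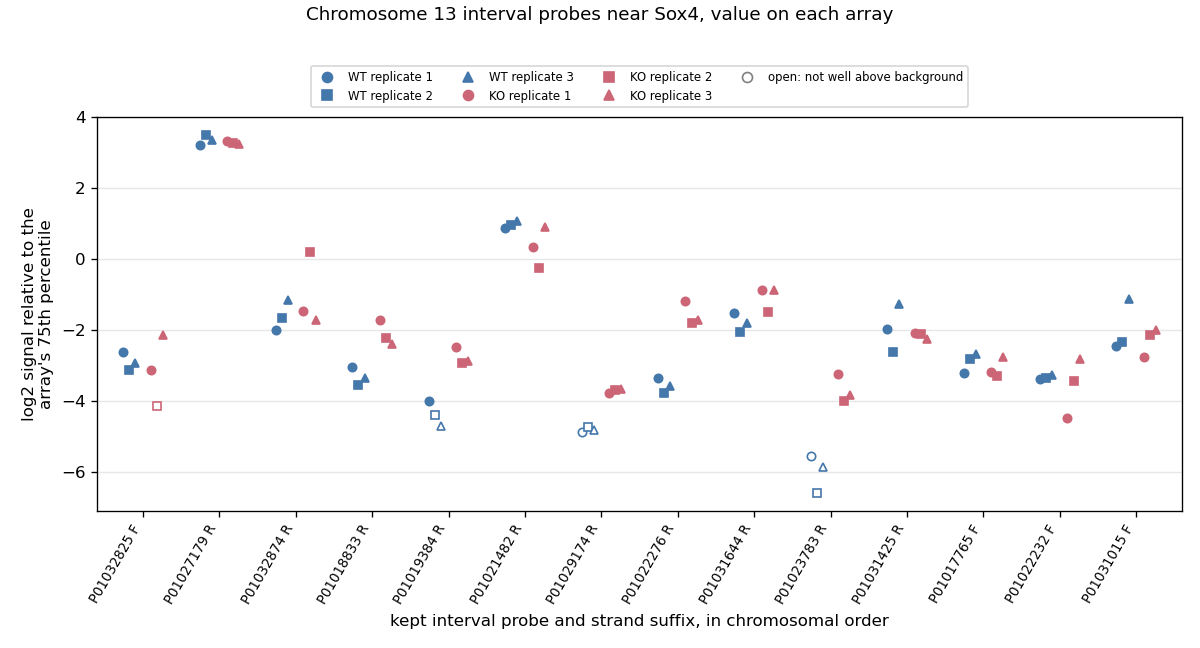
Log2 signal relative to each array's 75th percentile (vertical axis) for the 14 kept interval probes of chromosome 13 between 27 and 31 Mb, in chromosomal order (horizontal axis), with 1 point per array, WT blue and KO red, open where the spot was not well above background. In 6 R probes all 3 KO points lie above all 3 WT points, while A_30_P01027179 stays between 3.22 and 3.51 on every array.

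Slides differed in what they carried. Slide 1 carried WT replicate 1 and KO replicate 3, slide 2 WT replicates 2 and 3 and KO replicate 1, and slide 3 KO replicate 2 alone. Since the 6 probes were counted for not overlapping, their sign within a slide is fixed by that choice, and only sizes are given. For A_30_P01022276 the difference was 1.62 within slide 1, 2.50 within slide 2 and 2.12 with slide as a block, a fit in which KO replicate 2 carries no weight. Scaling each array to its median instead of its 75th percentile brought A_30_P01022276 (2.03, limma adjusted p = 0.0237) and A_30_P01023783 (2.34, adjusted p = 0.0395) past the threshold; over their alternative fits the adjusted p ran from 0.0237 to 0.404 and from 0.0395 to 0.570. Leaving out KO replicate 3 did so for 2 probes of this stretch, and leaving out WT replicate 1 for 4. The median of the 10 kept probes of the overlapping intervals stood at 0.11, -0.13 and 0.00 in WT and at 0.97, 1.09 and 0.92 in KO. Beside it, hair genes stood at -0.03 on KO replicate 3, muscle genes at 1.20 on WT replicate 1, and the level of the muscle list was higher and that of the T and NK cell list lower on every KO array than on any WT array. The part of these lists in the 6 probes was not tested.

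The sizes of these differences depended on how background was handled. With normexp correction, whose offset of 50 is added to every signal and so narrows differences between dim signals by construction, all 6 were smaller by over 1.5 times and lay between 0.17 and 1.02. A_30_P01022276 was 1.02 log2 units higher, a 2.03-fold level, and A_30_P01018833 0.50, a 1.42-fold level. A_30_P01019384 was 0.57 higher, A_30_P01031644 0.44 and A_30_P01023783 0.40. A_30_P01029174, with the smallest p, was 0.17 higher, a 1.13-fold level. The authors' deposited table, read by matching columns, gave 1.1 for A_30_P01022276 and 0.35 for A_30_P01029174.

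Away from chromosome 13, probes were named by one rule: an unadjusted p under 0.01, a difference of at least 1 log2 unit and no overlap, up to 12 per direction. 46 interval probes met it as higher in KO and 8 as lower. Of the 12 named as higher, 4 were the chromosome 13 probes above. 11 of the 12 were kept through KO alone, 6 were above background on no WT array, and in 9 WT replicate 1 was the highest of WT. Over all 20 named probes, higher and lower, the adjusted p-values in the limma fit ran from 0.0731 to 0.300. With normexp correction 19 of the 20 were smaller by over 1.5 times, the higher ones between 0.17 and 1.02 and the lower ones between -1.32 and -0.42. The median over all kept probes of the locus then was 1.75 on chromosome 3, 0.21 on 17, 0.38 on 8, 0.28 on 7 and 0.12 on 2. Without normexp correction these locus medians were 2.10, 1.02, 1.37, 1.16 and 0.58.

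**Figure D2:**
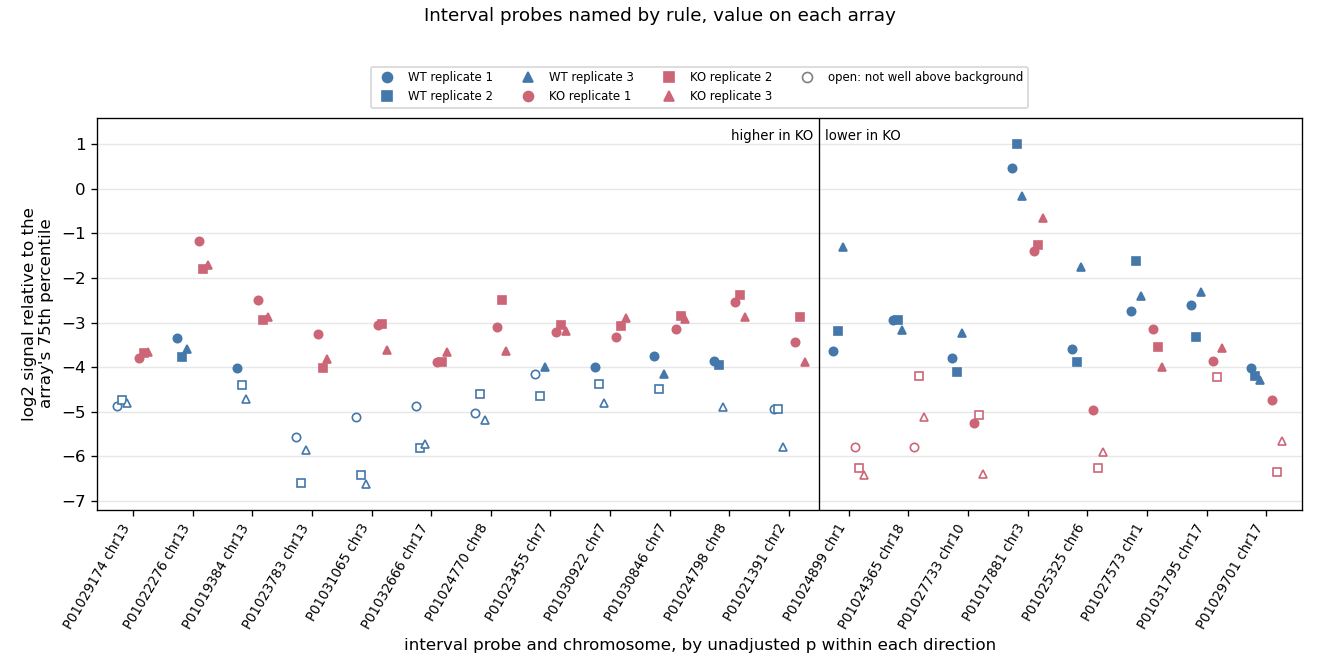
Log2 signal relative to each array's 75th percentile (vertical axis) of the 20 interval probes named by the rule (horizontal axis, 12 higher in KO left of the line and 8 lower to the right), with 1 point per array, WT blue and KO red, open where not well above background. Most WT points on the left and many KO points on the right are open, and the 2 genotypes do not overlap, as the rule requires.

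On chromosome 3, 3 overlapping F intervals between 137734560 and 137752677 hold 9 kept probes. All 9 were higher in KO, 8 of them without overlap, with a median difference of 2.10 and a range from 1.94 to 2.82. A_30_P01020116, A_30_P01032042 and A_30_P01019334 met the rule, with differences of 1.97, 1.95 and 2.10. All were above background on every array, but their p-values were too large to be among the probes named. The probe named, A_30_P01031065 (chr3:137734560-137740335_F), had the smallest p of the locus. It read 10.9, 5.65 and 4.46 units in WT, not above background, and 73.3, 62.5 and 40.1 in KO. It was higher by 2.82 ± 0.41 (adjusted p = 0.175), at least 2.19-fold. Another probe of the locus, A_30_P01024709 (chr3:137742666-137744470_F), stood at 2.40, 0.28 and 0.34 log2 units in WT and 3.07, 3.13 and 2.74 in KO, a difference of 1.97 ± 0.56 (adjusted p = 0.308). WT replicate 1 lay close to the KO mice here. Over the 9 probes its median was 1.41 relative to the WT mean, against -0.71 and -0.64 on the other WT arrays and 2.26, 2.28 and 1.71 in KO. WT replicate 1 was also the highest WT array for the skeletal muscle list, at 1.20; the part of that list in this locus was not tested.

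Chromosome 17 held a similar order of arrays. Between 15357376 and 15385701, 5 of 6 kept probes were higher in KO, 1 without overlap. A_30_P01032666 (chr17:15368546-15377747_R) read 13, 8.67 and 8.22 units in WT and 41.3, 34.3 and 38.7 in KO, higher by 1.66 ± 0.26 (adjusted p = 0.213) and at least 1.46-fold. A_30_P01027988 of the same strand differed by 2.45 ± 0.98, with WT replicate 1 at -2.32 and the other WT arrays at -6.18 and -5.23, so its groups overlapped. The median over the locus was 0.73 on WT replicate 1, -0.45 and -0.28 on the other WT arrays, and 0.97, 1.40 and 0.68 in KO.

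On chromosome 8, 3 intervals between 89996710 and 90061169 hold 6 kept probes, of which 4 were higher without overlap and 1 lower without overlap. A_30_P01024770 (chr8:89996710-90049453_F) gave 11.6, 19.9 and 12.1 units in WT, none above background, and 70.5, 90.8 and 39.5 in KO, higher by 1.86 ± 0.31 and at least 2.44-fold. A_30_P01024798 (chr8:90048940-90049461_F, 522 bases) was higher by 1.63 ± 0.30. The adjusted p-values were 0.241 and 0.281. KO replicate 3 was the lowest KO mouse on both, as it was over the locus, where the KO medians were 1.70, 1.56 and 0.77.

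At the chromosome 7 locus both strands were higher in KO. In chr7:88668948-88678046, 9099 bases long, the F probe A_30_P01023455 was higher by 1.12 ± 0.19 and the R probes A_30_P01030922, A_30_P01030846 and A_30_P01023282 by 1.29 ± 0.23, 1.16 ± 0.21 and 1.88 ± 0.46, all 4 without overlap. A_30_P01023282 was above background on no WT array, and its level was at least 2.86-fold higher. The signals of A_30_P01030922 were 24.0, 23.3 and 15.8 in WT and 60.5, 60.7 and 66.1 in KO. None was called, with adjusted p-values between 0.254 and 0.284. The neighbouring F probe A_30_P01019332 (chr7:88668435-88674440_F) differed by 0.04 ± 0.22. On chromosome 2, A_30_P01021391 (chr2:77152807-77155092_R) read 12.4, 15.8 and 7.88 units in WT, none above background, and 55.9, 69.0 and 33.4 in KO, a difference of 1.83 ± 0.33 (adjusted p = 0.281) and a level at least 1.94-fold higher. The other kept probe of that strand, A_30_P01020448, was higher by 1.25 ± 0.48, also without overlap. The wider interval chr2:77146893-77155643, which contains this one, did not share the direction. Its R probe A_30_P01027844 differed by -0.08 ± 0.13 and its F probe A_30_P01032868 by -0.50 ± 0.62, both with overlap.

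**Figure D3:**
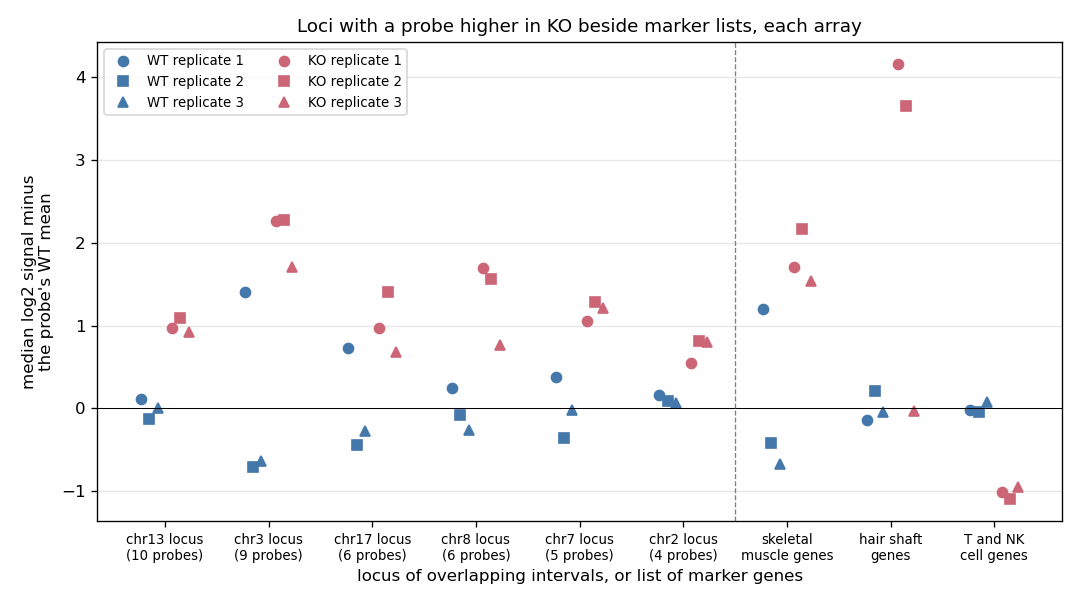
Median log2 signal minus each probe's WT mean (vertical axis) on each array, for 6 loci of overlapping intervals that hold a probe named as higher in KO (left of the dashed line) and for 3 lists of marker genes (right), WT blue and KO red. WT replicate 1 (blue circle) stands at 1.41 at the chromosome 3 locus and at 1.20 for muscle genes, while at the chromosome 13 locus it stands at 0.11; KO replicate 3 (red triangle) stands at -0.03 for hair genes and at 0.92 at the chromosome 13 locus.

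The 8 probes lower in KO lay on 8 different loci, 6 of them kept through WT alone. The largest difference was that of A_30_P01024899 (chr1:161973754-162006639_R), with 30.3, 53.4 and 178 units in WT and 10.9, 6.61 and 5.75 in KO, none of the latter above background. KO minus WT was -3.45 ± 0.59 (adjusted p = 0.257), at least 3.84-fold lower in KO, and WT replicate 3 alone was bright. The 4 kept F probes of the same locus differed by -0.22 to 0.39, all with overlap. A_30_P01024365 (chr18:55040319-55040708_R) read 49.3, 63.0 and 48.7 units in WT and 11, 27.4 and 14 in KO, where it was above background on no array, and was at least 3.10-fold lower (adjusted p = 0.284).

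Only 2 of the 8 were above background on all 6 arrays. A_30_P01017881 (chr3:88009045-88036270_R) gave 527, 979.6 and 394 units in WT and 231, 213 and 312 in KO, a difference of -1.55 ± 0.33 (adjusted p = 0.284). A_30_P01027573 (chr1:85036677-85038530_R) gave 57.1, 158 and 82.5 in WT and 68.7, 43.7 and 30.7 in KO on the linear scale, where the groups overlap before scaling; after scaling it differed by -1.31 ± 0.34 without overlap (adjusted p = 0.287). The other 4 differed by -1.87 (chr10:60473030-60535340_R), -2.63 (chr6:89207813-89209131_R), -1.13 (chr17:6817346-6819981_F) and -1.41 (chr17:84895250-84908450_F). In the chromosome 6 interval the second kept probe, A_30_P01026039, differed by 0.02 ± 0.28, so the low KO values of one probe were not shared by its strand.

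Agreement between probes of one interval can be read over the whole set. Of 720 interval strands with 3 or more kept probes, 360 had every difference on one side of 0, and the median spread between the highest and the lowest difference was 0.39. Every kept probe was at least 0.5 higher on 26 of the 720 strands and at least 0.5 lower on 4. Of the 481 intervals kept on both strands, the strand medians had one sign in 280, and the median size of F minus R was 0.26. Both strands were at least 0.5 higher in 5 intervals and at least 0.5 lower in 3.

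Strands of one interval could also part. In chr4:11899775-11931875, all 5 F probes were higher in KO, by 0.80 to 1.1 and 4 of them without overlap, and the single kept R probe differed by -0.22. Of these, A_30_P01030489, stood at -0.99, -1.58 and -1.33 log2 units in WT and -0.77, -0.04 and -0.58 in KO, a difference of 0.84 ± 0.24 (adjusted p = 0.311). In chr18:36449530-36456800, the 7 kept F probes had a median of -0.02 and the 5 kept R probes one of 0.01, although one F probe differed by 0.74 with an unadjusted p of 0.000409. At chr8:106619342-106624851 both strands were lower, with medians of -0.66 on F and -0.48 on R, and with overlap for 3 of 4 probes. In chr7:134779841-134840591 the 4 kept F probes ran from -0.73 to 0.31 and the R probe was at -0.26. In chr2:175640275-175701875 the medians were 0.14 on F and 0.25 on R.

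A further pattern set KO replicates 1 and 2 apart and was chosen after its values were seen. On 8 kept interval probes (0.150%, against 0.372% of all kept probes) both arrays lay at least 1 log2 unit above every other array. A_30_P01030307 (chr9:118291593-118324230_R) read 32.1, 30.3 and 40.3 units in WT, 1390.3 and 1026.3 on KO replicates 1 and 2, and 35.8 on KO replicate 3. A_30_P01021387 (chr9:56910620-56919667_F) read 73.9, 79.8 and 95.8 in WT, then 3337.8, 2142.8 and 110.2. A_30_P01029756 (chr6:50339188-50409363_R) read 17.5, 47.0 and 38.2 in WT, then 991, 702 and 33.4. The other 5 are A_30_P01025931 (chr12:113434415-113453161_F), A_30_P01032353 (chr16:13752215-13764390_R), A_30_P01026623 (chr9:40268246-40268441_R), A_30_P01018337 (chr5:125190100-125209625_R) and A_30_P01021001 (chr8:90000619-90061169_R), with differences between 1.20 and 1.77. KO replicate 3 lay within the WT range on A_30_P01030307, A_30_P01029756, A_30_P01026623 and A_30_P01018337. It lay below that range on A_30_P01025931 and A_30_P01032353, and above it on A_30_P01021387 and A_30_P01021001. Hair shaft genes were high on KO replicates 1 and 2, at 4.16 and 3.65, and stood at -0.03 on KO replicate 3. Their part in these 8 probes was not tested.

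**Figure D4:**
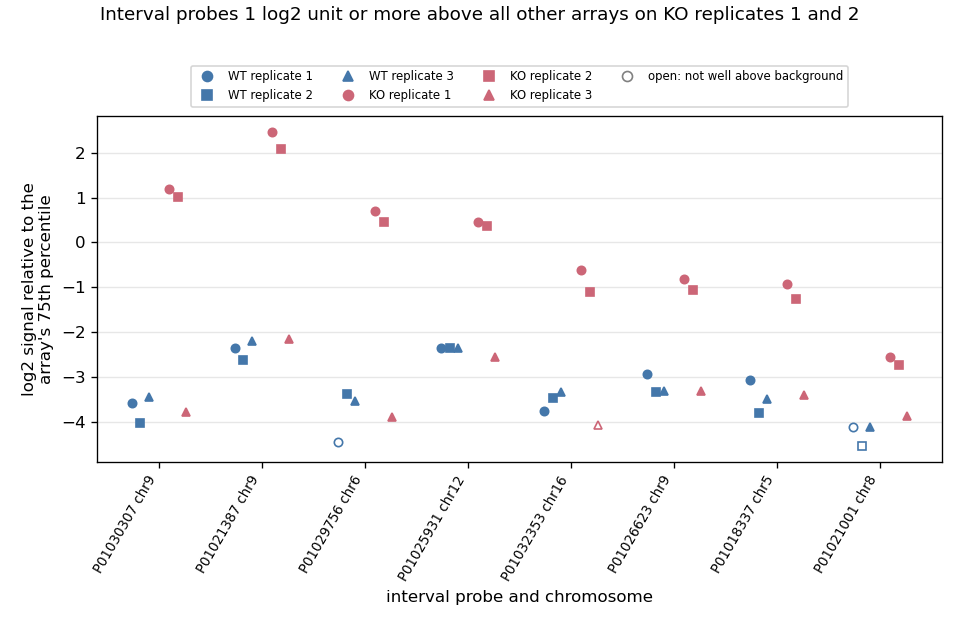
Log2 signal relative to each array's 75th percentile (vertical axis) of the 8 interval probes on which KO replicates 1 and 2 lay at least 1 log2 unit above all other arrays (horizontal axis), with 1 point per array, WT blue and KO red, open where not well above background. KO replicates 1 and 2 (red circle and square) stand apart from the WT arrays and from KO replicate 3 (red triangle) on every probe, as they were chosen to.

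The 3 kept interval probes with the smallest range over the arrays were chosen for it. A_30_P01032698 (chr7:69024136-69131056_F) stayed between 1.56 and 1.65 log2 units on all 6 arrays, A_30_P01024480 (chr6:116092274-116144199_R) between -1.71 and -1.61, and A_30_P01028632 (chr19:23064968-23069896_F) between -2.76 and -2.65. Their differences were -0.05, 0.00 and 0.01.

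Named long noncoding RNAs, measured by their own probes, stood beside the intervals as a reference. Of 64 on the list, 38 were on the array under a symbol and 30 were measured, 17 higher and 13 lower in KO, with a median of 0.03. limma called none of the 30, and none had an unadjusted p under 0.05. Neat1, which scaffolds nuclear paraspeckles, stood at 6.34, 5.89 and 6.25 log2 units in WT and 6.38, 6.35 and 6.38 in KO, a difference of 0.21 ± 0.15 without overlap. Meg3, a maternally expressed imprinted transcript, stood at 4.02, 3.30 and 3.70 in WT and 4.07, 4.09 and 4.30 in KO, 0.48 ± 0.20, also without overlap. Tug1 differed by -0.25 ± 0.13 without overlap, and Malat1, a nuclear speckle transcript, by 0.33 ± 0.19 with overlap. Hoxa11os, an antisense transcript of the HoxA cluster, had the largest difference of the 30, 1.23 ± 0.56, with KO replicate 2 alone high at 164 units where the other arrays read 18.4 to 52.7.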

How the data were processed

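Per the file headers, the scanner files hold spot intensity as Agilent Feature Extraction 11.5.1.1 wrote it; the deposited processed signal is background-subtracted, and further deposited flags, coded 0 or 1, mark spots well above background, saturation and outliers. Each array was scaled on the log2 axis by subtracting its own 75th percentile, taken over non-control probes; repeat spots were averaged, outliers left out. limma 3.58.1 (R 4.3.3; lmFit, eBayes, two-sided) tested KO against WT over 30069 kept probes with Benjamini-Hochberg adjustment at 0.05; it was tested on simulated data. The normexp alternative (offset 50), planned on mean spot signals, took the median spot and background signals. The authors also deposited a log2 value table, whose making no label or header describes. Its WT-headed columns followed the KO arrays (correlations 0.887 to 0.931) and its KO-headed columns the WT arrays (0.913 to 0.928), against -0.583 to -0.192 with the array named; column medians were 6.80. Scale and centring of that table stay unknown. 31 probes without an unflagged spot on every array were not fitted, and 13 interval probes without a strand suffix were left out. Symbols came from the GRCm38.p6 RefSeq table (27509 of 55681 probes). No probe or genomic sequence is printed, since none of the mm9 build was used here. Probes named by rule were: up to 12 per direction by p, the 27 to 31 Mb stretch, up to 6 intervals kept on both strands or by several probes, the 3 steadiest probes, and those at the edge of the rule. Members and lists were chosen with earlier results of these data known.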

Additional observations from a re-analysis of the deposited data

How the results depend on the processing

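Depth was limited by signal over background: 1095 of the kept interval probes met the rule in 1 group alone. Of these, 39 kept through KO were above background on no WT array and 2 kept through WT on no KO array. For those the other group has a bound and not a level. Interval probes called were 0 under 10 alternatives, 2 when scaled to the median, 8 with age, and 88 without KO replicates 1 and 2; leaving out 1 array gave 0 to 38. All kept probes called were 9 with normexp, 12 with quantile normalization, 20 when scaled to the median, 7 with background passed on all 6 arrays, 5 with the brightest probe per name, 169 with age, 0 with slide as a block and 9 with the value table in either reading; without KO replicates 1 and 2 there were 197, and leaving out 1 array gave 2 to 292. Replicate numbers did not pair the mice (correlations -0.123, -0.039 and 0.086), and the replicate block left 0 calls over all kept probes. The interval median was 0.15 without KO replicates 1 and 2, and -0.11 to 0.06 without single arrays. With no filter 16172 interval probes entered; leaving out 1 array kept 5330 to 6159. The chromosome 13 median, 0.27 as reported, was -0.10 with no filter, -0.13 with background passed on all 6 arrays, -0.08 with the brightest probe and also -0.08 within slide 2, -0.16 with the value table as headed, 0.84 without KO replicates 1 and 2, and -0.10 to 0.43 without single arrays; filters change which probes it covers. The direction of the 20 named probes without each array (20 of 20) is fixed by their choice for not overlapping. Of them, 3 and 9 could be tested with the all-array filter and the brightest probe. With the value table as headed, whose signs are opposite to its reading by matching columns, 0 kept their direction. The named long noncoding RNA median was then -0.05, and -0.04 to 0.08 without single arrays. Below 0 lay 56.8% of interval probes, 68.5% with normexp, 55.0% with quantile normalization and 53.5% scaled to the median. Single probes turned sign in some of these fits. A_30_P01032825 was 0.15 with slide as a block, 0.76 without KO replicates 1 and 2, and -0.75 to 0.26 without single arrays. Without those 2 arrays A_30_P01032874 was -0.10, A_30_P01017765 0.14, A_30_P01022232 0.50 (-0.64 to 0.20 without single arrays), and of the 8 probes high on them, A_30_P01030307 and A_30_P01029756 were both -0.11, A_30_P01025931 -0.20, A_30_P01032353 -0.54 and A_30_P01026623 -0.13. Without single arrays A_30_P01031425 was -0.52 to 0.16 and A_30_P01031015 -0.57 to 0.10, each above 0 only without WT replicate 3. The cause of each was not tested.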
